A study of Homo sapiens with 4 samples.

Results

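Tight junction genes were examined in 4 sorted subpopulations of PC14, an established human non-small-cell lung cancer line. The members are 9 genes chosen by name, CLDN1, CLDN3, CLDN7, OCLN, MARVELD2, MARVELD3, TJP1, TJP3 and CGN, with every probe set that the platform annotation gives to them. They hold 20 probe sets of the 41097 with 1 gene symbol, and 9 of 19775 genes. The subpopulations were E-CD133+ (E-cadherin-low, CD133-high), E+CD133+ (E-cadherin-high, CD133-high), E-CD133- (E-cadherin-low, CD133-low) and E+CD133- (E-cadherin-high, CD133-low), untreated and with 1 array each. All 4 come from the same line and passed through the same sorting scheme, first by E-cadherin and then by a lentiviral reporter in which the CD133 P1 promoter drives GFP. CD133 status therefore means reporter activity, and the labels give the populations as sorted fractions without naming separate cultures. No difference below has a replicate check, and with 1 array per group the number of arrays limits the precision.

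Tight junctions seal the space between neighbouring epithelial cells near their apical border. Claudins are membrane proteins with 4 segments through the membrane that form the strands of the seal and set which ions pass. Occludin (OCLN), tricellulin (MARVELD2) and MARVELD3 share a MARVEL membrane domain and sit in the same strands. Tricellulin lies mainly where corners of neighbouring cells meet. The zonula occludens proteins ZO-1 (TJP1) and ZO-3 (TJP3) and cingulin (CGN) form the plaque that ties the strands to actin. Loss of tight junctions is a textbook feature of the epithelial to mesenchymal transition, in which the repressor ZEB1 acts on junction genes.

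Values are deposited intensities on a linear scale. The floor of an array was its 50th percentile over probe sets other than controls, an intensity of 53.7 to 60.3. Intensities below it were set to it, so a ratio with 1 array at the floor is a bound and a ratio with both at the floor is 0. The E-cadherin comparison gave low over high in 2 pairs of arrays, E-CD133+ over E+CD133+ (the CD133-high pair) and E-CD133- over E+CD133- (the CD133-low pair). The CD133 comparison gave high over low from the same 4 arrays, E+CD133+ over E+CD133- (the E-cadherin-high pair) and E-CD133+ over E-CD133- (the E-cadherin-low pair). A gene was called when both pairs reached 2-fold or more and went the same way. Ratios of a gene are those of its main probe set, the one with the highest mean log2 intensity, unless another is named.

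The sort by E-cadherin was visible in its own gene. CDH1 read 347.0 in E-CD133+ against 5548 in E+CD133+ cells, and 527.8 in E-CD133- against 3546 in E+CD133- cells. ZEB1 went the other way, with 1301 in E-CD133+ against 168.0 in E+CD133+ cells, and 1056 in E-CD133- against 64.8 in E+CD133- cells. PROM1, the gene for CD133, lay below the floor on all 4 arrays. Of 6 epithelial markers, 5 were measured and KRT19 lay below the floor throughout. Of 4 lung markers (NKX2-1, NAPSA, SFTPB and SFTPC) all 4 were measured, and the highest value was 263.4. Of markers of other cell types, 2 of 3 leukocyte, 2 of 4 endothelial and 4 of 6 fibroblast genes were measured. The summed intensity of the fibroblast genes was 23530 and 17700 on E-cadherin-low arrays against 32000 and 24650 on E-cadherin-high arrays. That of the endothelial genes was 168.5 and 252.1 against 168.0 and 249.8. That of the leukocyte genes was 1161 and 524.2 against 1275 and 408.1. Of the 2 measured endothelial genes, PECAM1 read 120.0 to 173.5 in its main probe set. Its other probe sets lay below the floor on all 4 arrays, as did the endothelial genes VWF and CDH5. COL3A1 made up most of the fibroblast sum, with 19770 and 15940 on E-cadherin-low arrays against 29220 and 22770 on E-cadherin-high arrays. Of the 4 measured fibroblast genes, 2 had a negative and 2 a positive E-cadherin ratio in the CD133-high pair. In the CD133-low pair 3 were negative and 0 positive. COL1A2 read 434.7 in E-CD133+ against 65.1 in E+CD133+ cells. Along the CD133 sort 1 fibroblast and 1 leukocyte marker were called higher in CD133-high cells. LUM read 625.9 in E+CD133+ against 227.8 in E+CD133- cells, and 1390 in E-CD133+ against 130.9 in E-CD133- cells. Its other probe set lay below the floor on all 4 arrays. PTPRC read 1246 in E+CD133+ against 345.6 in E+CD133- cells, and 1102 in E-CD133+ against 505.0 in E-CD133- cells. Its other measured probe sets were not called, with log2 ratios of 0.83 and 0.66 in the E-cadherin-low pair. CD3E, the other measured leukocyte gene, had -0.22, a bound, in the E-cadherin-high pair and 0 in the E-cadherin-low pair. The 5' signal of 18S ribosomal RNA was also lower on E-cadherin-low arrays, 8619 and 7226 against 13204 and 14297 on E-cadherin-high arrays. The part of these signals in the results was not tested.

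Most tight junction genes had no call in the E-cadherin comparison, and the same held for 13940 of all 14083 measured genes. Of the 9 members, 8 were measured, meaning above the floor on at least 1 array, and 6 were above it on all 4. MARVELD3 was the 1 member called lower in E-cadherin-low cells and 0 were called higher. Over 14083 measured genes, 0.540% were called lower and 0.476% higher. The members were chosen with earlier results of these data known, so their count is not that of a blind choice. The members' median log2 ratio was -0.11 in the CD133-high pair and -0.30 in the CD133-low pair, against 0 in both over all measured genes. The CD133 comparison called 0 members in either direction, where 2.45% of measured genes were called higher and 1.12% lower. Its member medians were -0.02 in the E-cadherin-high pair and -0.01 in the E-cadherin-low pair. Averaged over both pairs the member median was -0.01, and it turned to 0.30 with no floor.

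**Figure D1:**
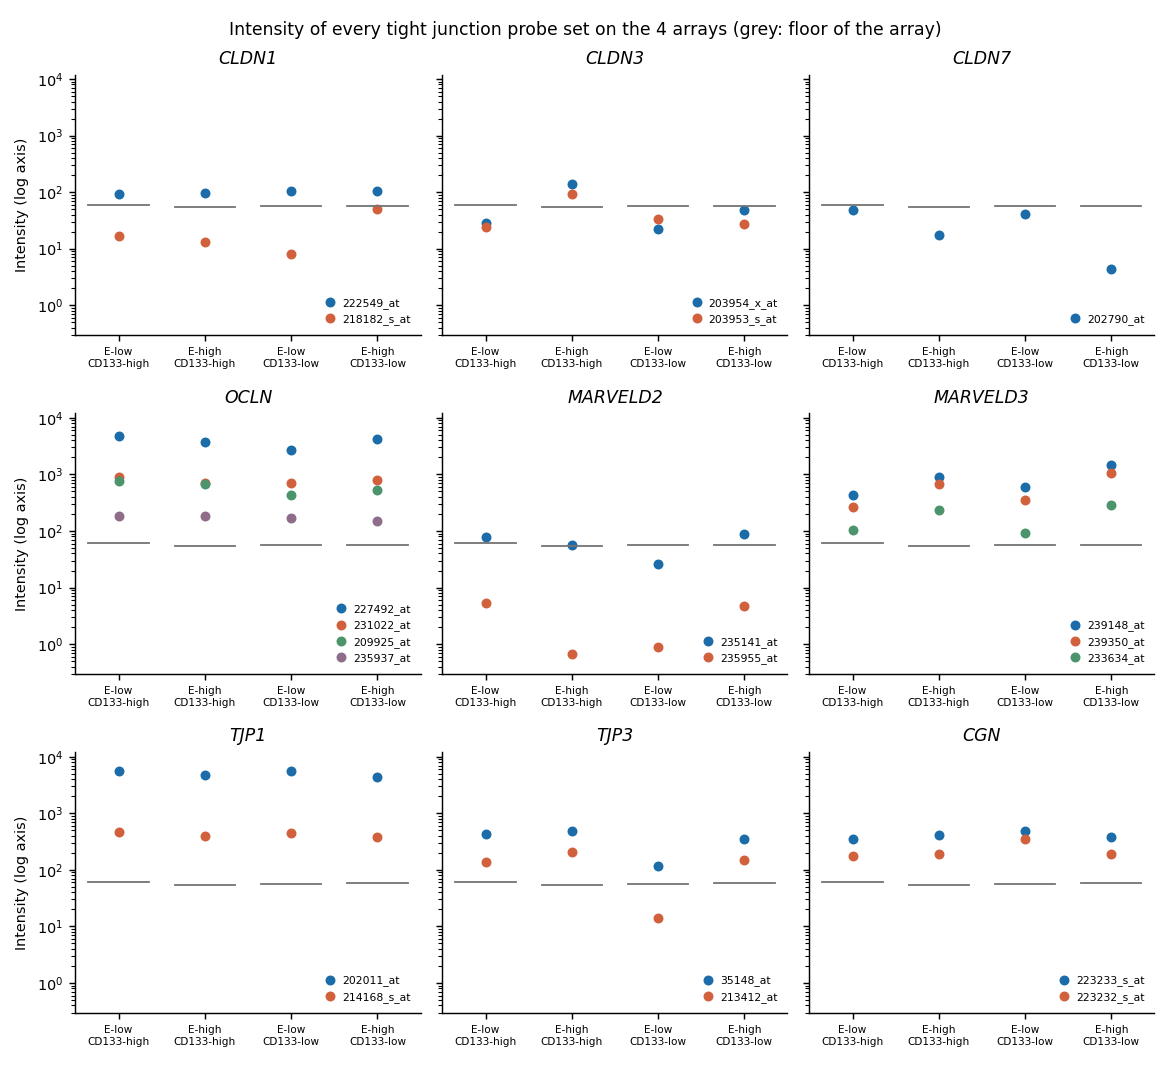
Intensity on a log axis of all 20 probe sets of the 9 genes (points, coloured by probe set) on each of the 4 arrays, with the floor of each array as a grey line. The 3 probe sets of MARVELD3 are lower on both E-cadherin-low arrays, both probe sets of TJP3 are lowest in E-CD133- cells, and CLDN7 lies below the floor throughout.

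The claudins gave little signal. CLDN1, a claudin of epidermal and many other epithelial barriers, read 93.8 in E-CD133+ against 94.8 in E+CD133+ cells, and 103.0 in E-CD133- against 102.6 in E+CD133- cells. Its 4 values thus spanned 1.10-fold and were all above the floor. Its other probe set lay below the floor on all 4 arrays.

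CLDN3, an epithelial claudin that tightens the seal, was above the floor on 1 array. Its main probe set read 28.8 in E-CD133+ against 138.2 in E+CD133+ cells, and 21.9 in E-CD133- against 48.8 in E+CD133- cells. Its second probe set read 24.2 in E-CD133+ against 93.3 in E+CD133+ cells, and 33.4 in E-CD133- against 27.5 in E+CD133- cells. Both probe sets were highest in E+CD133+ cells, the only array above the floor. The main one was at least 2.29-fold lower in E-cadherin-low than in E-cadherin-high cells of the CD133-high pair. The second was at least 1.55-fold lower there, so its floored ratio did not reach 2-fold. In this pair 2.53% of measured genes were at least 2-fold lower. In the other pair both arrays were at the floor, so no direction was measured there. In the CD133 comparison the same array made CLDN3 at least 2.41-fold higher in the E-cadherin-high pair. There 5.04% of measured genes were at least 2-fold higher, and the second probe set was at least 1.63-fold higher. Since E+CD133+ was the only array above the floor, the CLDN3 ratios could only take these directions. CLDN7, found in the junctions and along the sides of many epithelial cells, read 47.4 in E-CD133+ against 17.6 in E+CD133+ cells, and 40.5 in E-CD133- against 4.44 in E+CD133- cells. All 4 values lie below the floor, and no ratio is drawn from them.

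Among the MARVEL proteins, OCLN was bright and MARVELD2 dim. The main OCLN probe set read 4703 in E-CD133+ against 3746 in E+CD133+ cells, and 2686 in E-CD133- against 4313 in E+CD133- cells. The log2 ratios were 0.33 and -0.68, of opposite sign and both under 2-fold. The other 3 OCLN probe sets were above the floor on all 4 arrays, with ratios of -0.02 to 0.36 in the CD133-high pair and -0.26 to 0.17 in the CD133-low pair. None of the 4 probe sets of occludin, the longest known strand protein, reached 2-fold in a pair of either comparison.

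MARVELD2 read 78.6 in E-CD133+ against 57.5 in E+CD133+ cells, and 26.3 in E-CD133- against 86.9 in E+CD133- cells. The E-CD133- array was the only one below the floor, and the log2 ratios were 0.45 and, as a bound, -0.61. A second MARVELD2 probe set lay below the floor on all 4 arrays. In RefSeq order MARVELD2 and OCLN are adjacent protein-coding genes on chromosome 5. In their main probe sets both had a positive E-cadherin ratio in the CD133-high pair and a negative one in the CD133-low pair. The dimmest OCLN probe set had the reverse signs, with -0.02 and 0.17. Whether their position plays a part was not tested.

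MARVELD3, the third MARVEL protein of the junction, was lower in E-cadherin-low cells by each of its 3 probe sets. The main probe set read 436.7 in E-CD133+ against 900.5 in E+CD133+ cells, and 602.2 in E-CD133- against 1493 in E+CD133- cells. The second read 270.0 in E-CD133+ against 680.9 in E+CD133+ cells, and 348.9 in E-CD133- against 1068 in E+CD133- cells. The third read 103.7 in E-CD133+ against 238.5 in E+CD133+ cells, and 93.8 in E-CD133- against 292.6 in E+CD133- cells. Both E-cadherin-low arrays were below both E-cadherin-high arrays in every probe set, and all 12 values were above the floor.

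The main probe set was 2.06-fold lower in the CD133-high pair and 2.48-fold lower in the CD133-low pair. The other probe sets were 2.52-fold and 2.30-fold lower in the first of these and 3.06-fold and 3.12-fold lower in the second. Of 3248 genes with 3 or more measured probe sets, 3 (0.0924%) had all of them called lower, a count made after the MARVELD3 values were seen. By the additive limma fit over all measured genes the adjusted p of MARVELD3 was 0.326, with 1 residual degree of freedom, where 0.149% of measured genes passed 0.05. That degree of freedom is the difference between the 2 pairs rather than a spread of replicates. CDH1, the sorted marker, had log2 ratios of -4.00 and -2.75, against -1.04 and -1.31 for MARVELD3. Summed intensity of the 5 measured epithelial markers, CDH1 among them, was 15700 and 15190 in the E-cadherin-low subpopulations and 29570 and 31220 in the E-cadherin-high ones. Of the 5, only CDH1 was called. In the CD133-high pair 4 had a negative ratio and 1, KRT7, a positive one of 0.85, and in the CD133-low pair all 5 were negative. The part of this sum in the MARVELD3 result was not tested. With bulk RNA, fewer cells with a transcript and less of it per cell cannot be told apart.

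Along the CD133 sort MARVELD3 had no call. The main probe set read 900.5 in E+CD133+ against 1493 in E+CD133- cells, and 436.7 in E-CD133+ against 602.2 in E-CD133- cells. Its log2 ratios were -0.73 and -0.46. The 3 probe sets ran from -0.73 to -0.30 in the E-cadherin-high pair and from -0.46 to 0.15 in the E-cadherin-low pair. The level thus ran from E+CD133- through E+CD133+ and E-CD133- to E-CD133+ in the main probe set, and each step between neighbours was under 2-fold.

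**Figure D2:**
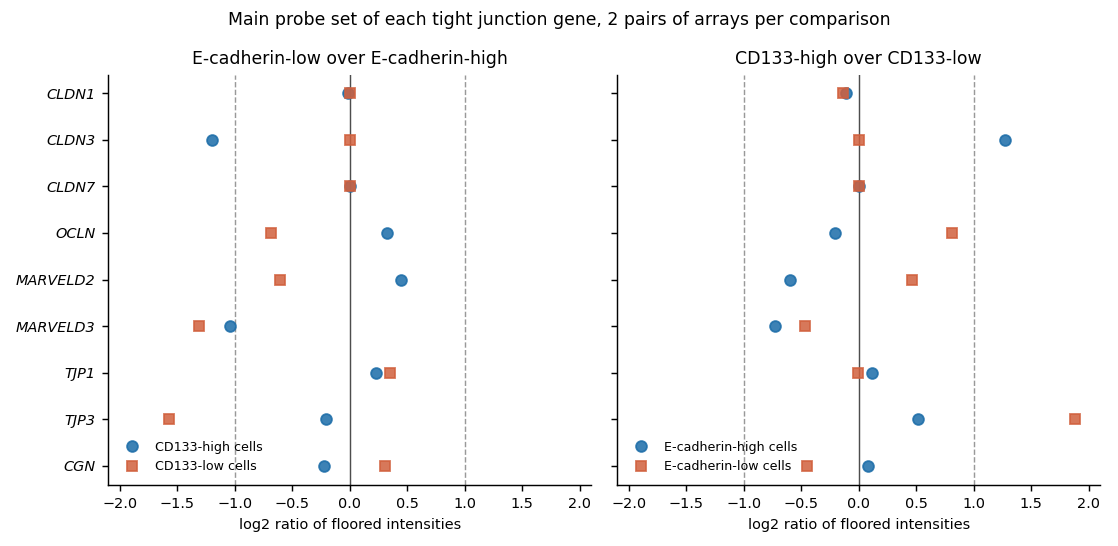
Log2 ratio of floored intensities of the main probe set of each gene, left for E-cadherin-low over E-cadherin-high and right for CD133-high over CD133-low, with 1 point for each pair of arrays and dashed lines at 2-fold. MARVELD3 lies past the left line in both pairs at -1.04 and -1.31, and TJP3 lies past a line in 1 pair of each comparison, at -1.57 and 1.88.

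The plaque genes divided into steady and variable ones. TJP1, the scaffold ZO-1 that binds claudins and occludin, read 5608 in E-CD133+ against 4785 in E+CD133+ cells, and 5648 in E-CD133- against 4421 in E+CD133- cells. Its log2 ratios were 0.23 and 0.35, and its second probe set gave 0.21 and 0.23. Both E-cadherin-low arrays were above both E-cadherin-high arrays in both probe sets, by amounts well under 2-fold. The ratios of 2 pairs differed by a median of 0.36 (log2) over genes above the floor on all 4 arrays.

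CGN, which links the plaque to actomyosin, read 350.3 in E-CD133+ against 409.3 in E+CD133+ cells, and 479.1 in E-CD133- against 387.2 in E+CD133- cells. Its second probe set read 176.9 in E-CD133+ against 187.1 in E+CD133+ cells, and 345.5 in E-CD133- against 187.4 in E+CD133- cells. Both probe sets were highest in E-CD133- cells, and neither reached 2-fold in any pair.

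TJP3, the scaffold ZO-3 of epithelial cells, was low in 1 subpopulation. Its main probe set read 429.9 in E-CD133+ against 495.9 in E+CD133+ cells, and 116.5 in E-CD133- against 347.2 in E+CD133- cells. The second probe set read 139.4 in E-CD133+ against 208.5 in E+CD133+ cells, and 14.0 in E-CD133- against 147.4 in E+CD133- cells. Both were lowest in E-CD133- cells, where the second lay below the floor, while the other 3 arrays differed from each other by less than 2-fold.

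In the E-cadherin comparison TJP3 had log2 ratios of -0.21 in the CD133-high pair and -1.57 in the CD133-low pair. In the second of these 2.87% of measured genes were at least 2-fold lower. In the CD133 comparison it had 0.51 in the E-cadherin-high pair and 1.88 in the E-cadherin-low pair, where 8.11% of measured genes were at least 2-fold higher. The large ratio of either comparison rests on the same array, and whether the effect of one marker depends on the other was not tested, since no residual degrees of freedom are left. In the additive limma fit its adjusted p was 0.734 for E-cadherin and 0.181 for CD133, where 2.05% of measured genes passed.

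Of the 6 members above the floor on all 4 arrays, CLDN1, OCLN, TJP1 and CGN spanned less than 2-fold from the highest to the lowest array, with spans of 1.10-fold to 1.75-fold. MARVELD3 spanned 3.42-fold and TJP3 4.26-fold. Over all 10891 genes above the floor on all 4 arrays the median span was 1.57-fold, and 75.8% spanned less than 2-fold.

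**Figure D3:**
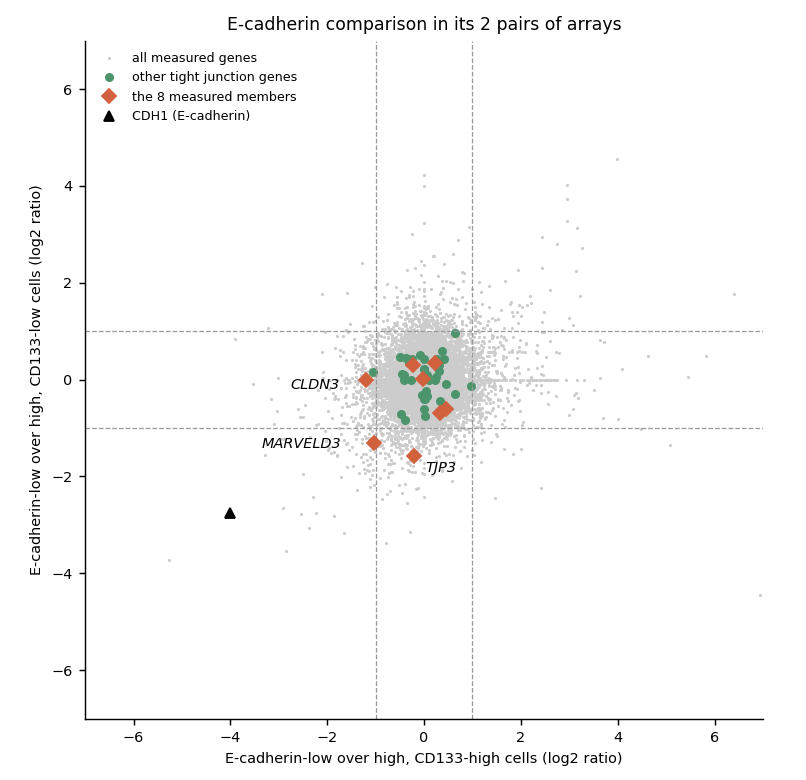
Log2 ratio of E-cadherin-low over E-cadherin-high in CD133-high cells (horizontal) against that in CD133-low cells (vertical) for 14083 measured genes in grey, other tight junction genes in green, the 8 measured members as orange diamonds and CDH1 as a black triangle, with dashed lines at 2-fold. MARVELD3 is the only diamond past the lines in both pairs, and 0 of the green points are.

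Genes with the pattern nearest to a member were sought among all measured genes, by the Euclidean distance between log2 intensities centred over the 4 arrays. This was done for the 3 members whose main probe set spanned at least 2-fold. Nearest to MARVELD3 was LLGL2, a homologue of the fly polarity gene lethal giant larvae, at a distance of 0.08. LLGL2 read 266.4 in E-CD133+ against 515.9 in E+CD133+ cells, and 353.8 in E-CD133- against 908.6 in E+CD133- cells. Its log2 ratio of -0.95 in CD133-high cells is just under the 2-fold line. PRTG, a membrane protein of the immunoglobulin superfamily, followed at 0.16 and PLCL2 at 0.21.

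Nearest to TJP3 were IRX4, a homeobox factor, at 0.22, the receptor kinase ERBB3 at 0.24 and NLRX1 at 0.24. ERBB3 read 2385 in E-CD133+, 2213 in E+CD133+, 622.5 in E-CD133- and 1791 in E+CD133- cells. Nearest to CLDN3 were NRN1 at 0.01, CTXN1 at 0.09 and BRME1 at 0.12. That pattern rests on values above the floor on 1 array for CLDN3, NRN1 and BRME1 and on 2 for CTXN1. The likeness rests on 4 arrays and was sought among 14082 other genes.

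**Figure D4:**
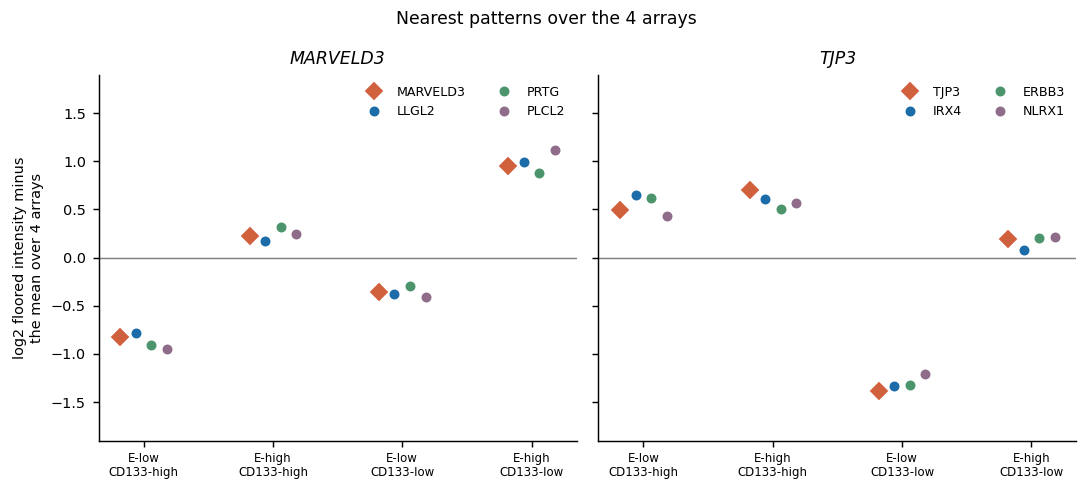
Log2 floored intensity minus the mean over the 4 arrays for MARVELD3 (left) and TJP3 (right), each as an orange diamond, with the 3 genes nearest to it as circles set beside it. LLGL2 follows MARVELD3 at a distance of 0.08, and IRX4, ERBB3 and NLRX1 share the low value of TJP3 in E-CD133- cells.

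A wider list of 51 other tight junction genes gave 45 with a probe set of 1 symbol and 36 measured. In both comparisons 0 of the 36 were called in either direction. Their median log2 ratio in the E-cadherin comparison was 0.01 in the CD133-high pair and 0.07 in the CD133-low pair. In the CD133 comparison it was 0 in the E-cadherin-high pair and 0.04 in the E-cadherin-low pair. Genes of the list without such a probe set were not analysed here.

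Of 17 other claudins 12 were measured. CLDN12, a claudin that lacks the usual PDZ-binding tail, had the highest mean signal of its list. It read 2958 in E-CD133+ against 2826 in E+CD133+ cells, and 1721 in E-CD133- against 2191 in E+CD133- cells. The 1 named probe set of CLDN4, the neighbour of CLDN3 on chromosome 7, lay below the floor on all 4 arrays.

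Among the immunoglobulin adhesion proteins of the junction 3 of 5 were measured, and CXADR, the coxsackievirus and adenovirus receptor, was the brightest. Its main probe set had E-cadherin ratios of 0.05 and -0.24 and CD133 ratios of -0.66 and -0.36. LSR, the angulin that recruits tricellulin to cell corners, was the 1 measured gene of 3 in its group, with E-cadherin ratios of -0.25 and 0.42.

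All 10 plaque scaffolds with a probe set were measured. AFDN, the nectin-binding protein afadin, had the highest mean signal with E-cadherin ratios of -0.39 and -0.83, while 2 of its other probe sets had positive ratios in both pairs. The signalling protein YBX3, a Y-box factor bound by ZO-1, had -0.45 and 0.11 in its main probe set. Its second brightest probe set had -1.15 and -0.52, and the remaining ones had opposite signs in the 2 pairs. Of 7 polarity partners all were measured, and the atypical protein kinase C gene PRKCI had 0.33 and -0.44.

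Transcription factors known to act on junction genes were read from a fixed list, chosen with earlier results of these data known. Of 5 repressors 3 were measured, and ZEB1 was called higher in E-cadherin-low cells with log2 ratios of 2.95 and 4.03. ZEB2 and SNAI2 did not rise above the floor on any array. TWIST1 had the highest mean signal of that list and ratios of 0.14 and -0.80. Of 9 activators with a probe set 8 were measured and 0 were called. KLF5 had the highest mean signal, with ratios of 0.69 and -0.76. OVOL2, a repressor of ZEB1 named after its values were seen, came nearest to a call with -1.32 and -0.93.

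ZEB1 binds an E-box whose letters are CACCTG on one strand and CAGGTG on the other. Promoter windows of 300 bases (250 before and 50 after a start) from RefSeq, build GRCh38.p14, were found for 8 of the 9 members, all but MARVELD3. They gave 14 windows because some genes have several starts. The E-box was in 6 of the 14 windows (42.9%), from CLDN3, CLDN7, OCLN, TJP1 and TJP3, and in 20.6% of all 35116 windows. The windows below are shown because their genes differ in outcome: CLDN7 below the floor on all arrays, CLDN3 above it on 1, OCLN bright on all 4 and TJP3 low on 1. TJP1, also bright on all 4, has 1 copy in a window not printed here and 0 in its other windows. Whether copies go with outcome was not tested. Letters are 5' to 3' on the strand of the gene, and capitals mark the E-box.
CLDN7, chr17:7262429-7262728, minus strand: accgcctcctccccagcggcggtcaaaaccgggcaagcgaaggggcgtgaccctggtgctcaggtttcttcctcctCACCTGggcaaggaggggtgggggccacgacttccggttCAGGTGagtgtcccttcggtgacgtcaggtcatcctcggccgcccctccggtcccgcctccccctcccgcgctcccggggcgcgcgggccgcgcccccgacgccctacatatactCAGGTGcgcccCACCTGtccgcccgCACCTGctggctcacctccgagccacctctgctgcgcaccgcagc
CLDN3, chr7:73770221-73770520, minus strand: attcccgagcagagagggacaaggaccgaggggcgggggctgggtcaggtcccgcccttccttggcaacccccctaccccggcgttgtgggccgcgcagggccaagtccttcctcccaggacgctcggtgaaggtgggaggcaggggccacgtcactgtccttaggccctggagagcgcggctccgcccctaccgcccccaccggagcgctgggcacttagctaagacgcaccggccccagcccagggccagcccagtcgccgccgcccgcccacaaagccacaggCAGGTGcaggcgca
OCLN, chr5:69492540-69492839, plus strand: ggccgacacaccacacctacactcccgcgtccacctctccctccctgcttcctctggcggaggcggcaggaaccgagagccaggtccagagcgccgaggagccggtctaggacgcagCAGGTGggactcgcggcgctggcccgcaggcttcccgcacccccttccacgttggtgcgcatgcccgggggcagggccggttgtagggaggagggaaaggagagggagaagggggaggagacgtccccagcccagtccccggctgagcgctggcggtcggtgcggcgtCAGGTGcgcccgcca
TJP3, chr19:3721487-3721786, plus strand: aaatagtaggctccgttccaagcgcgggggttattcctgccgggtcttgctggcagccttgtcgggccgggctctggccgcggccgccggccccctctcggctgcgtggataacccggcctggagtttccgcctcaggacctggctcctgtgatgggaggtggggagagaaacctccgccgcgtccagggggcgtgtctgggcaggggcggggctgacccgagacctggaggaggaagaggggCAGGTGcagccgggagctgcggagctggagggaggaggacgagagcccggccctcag
The CLDN7 window holds 5 copies, a number reached by 0.094% of all windows. That is the highest count among the 14 windows, and its share was taken after the copies were counted. The OCLN window holds 2, a number reached by 3.49%, and CLDN3 and TJP3 hold 1 each. An overlapping OCLN window, chr5:69492297-69492596, holds 1 further copy. The other CLDN7 window, chr17:7263164-7263463, and the other TJP3 window, chr19:3708134-3708433, hold 0 copies. A match is a description of letters and shows no binding.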

How the data were processed

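Total RNA from 4 sorted PC14 subpopulations was hybridised to 1-colour Affymetrix arrays. The deposited intensity per probe set is linear. Per the submitters' processing notes the authors used MAS5, whose version is not given in the sources used here. With 2% of probe sets trimmed at either end, the mean was 500.1 on every array, so the deposited table carries a scaling within arrays. The table held 54675 probe sets (62 controls) and no detection calls, so the 50th percentile served as a floor. Probe sets were named from the platform annotation: 41097 had 1 symbol, 1801 several (not used) and 11777 none here. The gene IDs of 41043 matched RefSeq (GRCh38.p14), used for names, gene order and promoter windows.

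Log2 ratios were taken in pairs, with no test in the main analysis. An additive limma fit (intensity trend, Benjamini-Hochberg adjustment, threshold 0.05) was an alternative. Named were all members, the 3 nearest genes of each member spanning 2-fold, genes of the junction and factor lists that were called, and the gene with the highest mean signal in each list of junction genes or factors. The members and lists were chosen with earlier results of these data known. The procedure was tested on simulated data with planted effects larger than those of MARVELD3, so that test does not bear on changes of its size. Tools were Python 3.11.15, numpy 2.4.6, pandas 2.3.3, matplotlib 3.10.9, R 4.3.3 and limma 3.58.1. Alternatives are in the closing section.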

Additional observations from a re-analysis of the deposited data

How the results depend on the processing

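MARVELD3 was called lower in E-cadherin-low cells under quantile normalization, equal array medians, floors at the 25th and 65th percentiles, no floor, a 1.5-fold threshold, the mean over probe sets and without probe sets marked as shared. The count of members called lower was 2 with no floor and 2 with the floor at the 25th percentile, where CLDN3 joined MARVELD3 through values below the main floor. CLDN7 then made the count of members called higher 1 with no floor and 1 with the floor at the 25th percentile. The count of members called lower was 0 at a threshold of 3-fold and 0 in the additive limma fit, with or without an intensity trend, the second chosen after seeing the data. At an unadjusted p below 0.05 that fit had 1 of 8 members in each comparison, and it called 21 of all genes with the trend and 0 without it for E-cadherin. The CD133 comparison had 0 members called under every alternative run, with limma calling 289 of all genes with the trend and 55 without it.

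The median of the member means in the CD133 comparison was -0.01 over 8 measured members, against 0.30 with no floor and 0.29 with the floor at the 25th percentile, both over 9 members. Single-gene mean ratios moved by at least 0.49 (log2) in 6 cases. That cutoff is the standard deviation, over measured genes, of the difference between the 2 pairs, divided by the square root of 2. The mean E-cadherin ratio of CLDN3 was -1.71 with no floor and with the floor at the 25th percentile, against -0.60. The means of MARVELD2 were -0.64 against -0.08 for E-cadherin and 0.49 against -0.07 for CD133 under the same 2 floors. Equal array medians moved the median of all measured genes by -0.12 in the CD133-high pair of the E-cadherin comparison. The labels give no replicate numbers to pair by, and both comparisons, the additive limma fit included, were already matched on the other marker. Leaving out an array removes 1 pair of each comparison, so it was not run.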
